A study of Mus musculus with 6 samples.

Results

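The nuclear-encoded subunits of the mitochondrial respiratory chain were examined in primary mouse osteoblasts after 4 h with C5a, the small anaphylatoxin released when complement factor C5 is cleaved. The members are the genes whose symbol, as the only one named by a probeset, begins with Nduf followed by a, b, c, s or v and a number, is Sdha, Sdhb, Sdhc or Sdhd, or begins with Uqcr, Cox4 to Cox8 or Atp5. This gave 81 of the 19938 genes measured: 35 of complex I, 4 of complex II, 8 of complex III, 17 of complex IV and 17 of complex V. Osteoblasts came from 3 wild-type male C57BL6/J mice aged 8 to 12 weeks, numbered 2, 4 and 5, and were differentiated for 14 days in osteogenic medium at passage 2 to 3. On day 15, 1 culture of each mouse was left unstimulated for 4 h in proliferation medium and 1 received recombinant murine C5a in the same medium for 4 h, so that every mouse gave a pair of cultures and 6 arrays were compared. The methods also name a shorter stimulation, which was not analysed here.

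The respiratory chain lies in the inner mitochondrial membrane. Complex I takes electrons from NADH and complex II, which is also an enzyme of the tricarboxylic acid cycle, takes them from succinate. Both pass them to ubiquinone, complex III moves them to cytochrome c, and complex IV delivers them to oxygen. Complexes I, III and IV pump protons, and complex V, the ATP synthase, uses the proton gradient to make ATP. Complex II is built from nuclear genes alone, whereas the other complexes combine nuclear subunits with subunits encoded in mitochondrial DNA. Differentiating osteoblasts are known to draw on both glycolysis and oxidative phosphorylation.

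All values are log2 intensities after normalization by the robust multiarray average, and every difference is C5a minus unstimulated on that scale. The medians over all 35556 probesets lay between 5.89 and 5.93 on the 6 arrays. Of the 13 osteoblast markers listed, 9 were measured. Col1a1, a chain of type I collagen, lay between 13.32 and 13.79, and Alpl, the alkaline phosphatase of bone, between 9.29 and 11.42. The mean over the 9 markers was 10.43, 11.11 and 9.33 in the unstimulated cultures of mice 2, 4 and 5 and 10.35, 10.97 and 9.22 after C5a. Of the 9, 5 (55.6%) were lower after C5a in all 3 mice, beside 22.9% of all genes. The cultures also differed in their macrophage and osteoclast markers, of which 19 of 20 were measured. The linear intensities of these 19 genes summed to 3061 to 31490 in the unstimulated cultures and to 3330 to 24250 in the C5a cultures. Adgre1, the macrophage surface receptor F4/80, measured 10.14, 10.42 and 5.61 in the unstimulated cultures of mice 2, 4 and 5 and 9.88, 9.90 and 5.45 after C5a. In such bulk cultures, fewer cells of a type and less RNA per cell cannot be told apart. P-values measure the spread between the cultures of these 3 animals, with 1 culture per animal and treatment.

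Promoters are shown for 3 of the 4 complex II genes, since this complex had values lower after C5a in every mouse, and for Ndufa6, the member with the largest difference. Each covers 250 bases before to 50 bases after the RefSeq start of the gene, 5′ to 3′ on the strand of the gene, in the mouse build GRCm38.p6. Capitals mark the letters TGCGCA, a half-site of the nuclear respiratory factor NRF1, or CCGGAAG, the core bound by ETS factors such as GABP, on either strand, so that CTTCCGG is the same core read on the other strand. The Sdha window lies at chr13:74350191-74350490 on the minus strand, that of Sdhb at chr4:140961021-140961320 on the plus strand, that of Sdhd at chr9:50603800-50604099 on the minus strand and that of Ndufa6 at chr15:82354242-82354541 on the minus strand.
Sdha promoter: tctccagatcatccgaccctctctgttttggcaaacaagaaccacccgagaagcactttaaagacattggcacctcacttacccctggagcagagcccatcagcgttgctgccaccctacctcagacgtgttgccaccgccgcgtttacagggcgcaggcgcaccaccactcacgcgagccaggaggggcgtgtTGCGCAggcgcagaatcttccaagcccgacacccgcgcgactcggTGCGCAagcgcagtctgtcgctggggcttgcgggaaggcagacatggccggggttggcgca
Sdhb promoter: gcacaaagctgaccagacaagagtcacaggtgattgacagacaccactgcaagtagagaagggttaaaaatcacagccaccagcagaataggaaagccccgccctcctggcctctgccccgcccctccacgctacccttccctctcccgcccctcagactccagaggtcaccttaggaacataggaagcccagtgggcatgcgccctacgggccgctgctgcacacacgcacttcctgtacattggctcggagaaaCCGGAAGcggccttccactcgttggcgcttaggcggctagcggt
Sdhd promoter: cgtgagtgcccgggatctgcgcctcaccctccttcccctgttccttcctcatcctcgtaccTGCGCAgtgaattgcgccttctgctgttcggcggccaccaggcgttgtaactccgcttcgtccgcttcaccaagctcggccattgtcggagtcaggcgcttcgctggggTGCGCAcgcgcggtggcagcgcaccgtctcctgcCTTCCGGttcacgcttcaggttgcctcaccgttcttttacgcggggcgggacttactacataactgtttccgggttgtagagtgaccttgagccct
Ndufa6 promoter: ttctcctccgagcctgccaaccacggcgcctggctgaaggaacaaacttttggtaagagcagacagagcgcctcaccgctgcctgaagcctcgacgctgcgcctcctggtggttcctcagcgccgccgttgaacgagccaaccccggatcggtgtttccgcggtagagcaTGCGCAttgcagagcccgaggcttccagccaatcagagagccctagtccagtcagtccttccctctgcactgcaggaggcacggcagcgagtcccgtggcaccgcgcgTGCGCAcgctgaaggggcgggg

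The windows of Sdha and Ndufa6 each held 2 NRF1 half-sites, that of Sdhb 1 ETS core, and that of Sdhd 2 NRF1 half-sites and 1 ETS core. Of the 81 members, 66 matched the promoter table, with 71 promoters. TGCGCA stood in 25.4% of these 71 promoters and in 7.76% of all 32851 promoters of the same length. CCGGAAG stood in 23.9% of the member promoters and in 8.86% of all, and CCATNTT, the core of the factor YY1, in 26.8% and 16.1%. At least 1 of these 3 motifs stood in 59.2% of the member promoters and in 28.9% of all promoters. The median GC content was 57.3% in the member promoters and 52.7% in all, which moves with motifs of this composition, and its part in these shares was not tested. A match describes the letters of the window and does not show that a factor binds there.

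The first question was whether C5a changed the transcripts of the chain at all within 4 h. None of the 81 members passed an adjusted p of 0.05 in limma with the mouse as a block (Benjamini-Hochberg over all probesets), where 4 of 35556 probesets passed (0.0112%). The smallest adjusted p of a member was 0.172, for Ndufs1. None of the 81 members had an unadjusted p under 0.05 together with a fold change of at least 1.5, the thresholds of the methods, which 3.28% of all probesets met, 1.57% lower and 1.71% higher. At an unadjusted p under 0.05 alone, 8 members (9.88%) were lower after C5a, beside 8.58% of all probesets and 11.9% of all genes, and 0 were higher, beside 7.61% of all probesets. The share of lower members therefore lay near the background. When only the 21789 probesets naming 1 gene were tested, 795 passed the adjusted threshold. The members among them still numbered 0, with the smallest adjusted p at 0.0884.

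The differences were small throughout. The median over the 81 members was -0.05, with a range from -0.47 for Ndufa6 to 0.20 for Atp5md. The 95% interval lay within a 1.5-fold change in either direction for 77 members (95.1%), beside 83.9% of all genes. The 4 others were Ndufa6, Ndufa4l2, Ndufv3 and Atp5md. Values below 0 were found in 63 members (77.8%), beside 47.5% of all probesets and 52.1% of all genes. The values lay below 0 in 72 members in mouse 2, in 38 in mouse 4 and in 44 in mouse 5, and the medians within these mice were -0.17, 0.01 and -0.01. The excess of values below 0 thus lay in mouse 2, where 9654 of all 19938 genes were below 0. Without mouse 2, the median over the members was 0.01. In all 3 mice, 24 members (29.6%) were lower and 5 (6.17%) were higher, beside 17.7% and 18.3% of all probesets and 22.9% and 19.0% of all genes. The C5a values of 8 members (9.88%) lay wholly below the unstimulated values (Ndufa6, Ndufs1, Ndufs3, Ndufs4, Ndufa10, Ndufc2, Atp5g2 and Atp5j2), beside 7.29% of all probesets and 9.95% of all genes, so that this share lay at the background. Those of 1 member, Cox7a2, lay wholly above, beside 7.89% of all probesets and 8.67% of all genes.

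**Figure D1:**
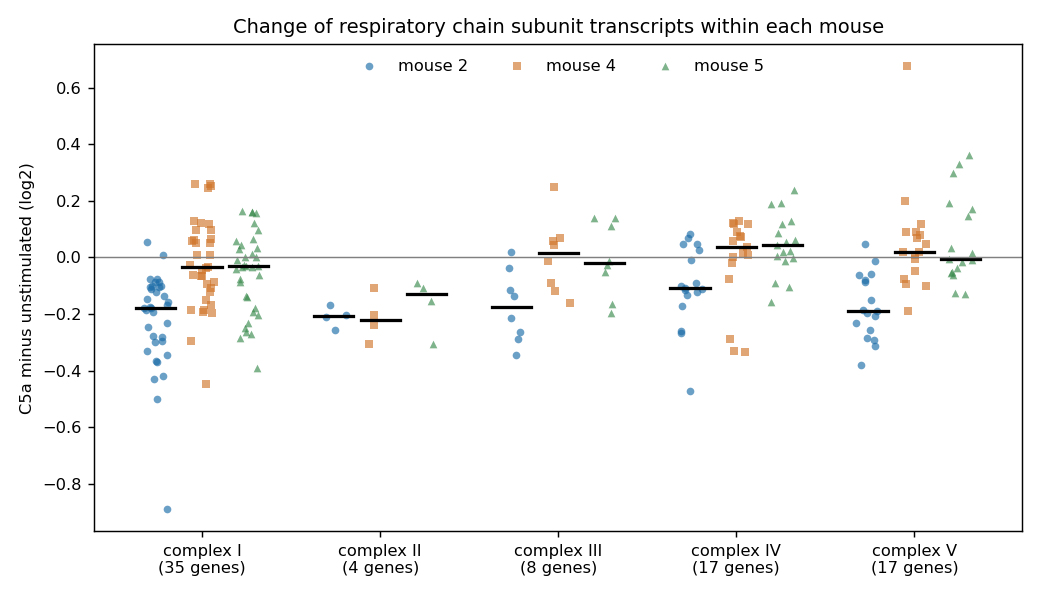
Difference between the C5a and the unstimulated culture of each mouse (log2, vertical axis) for the members of each complex. Each point is 1 gene in 1 mouse, black bars are medians within a mouse, and the medians of complex II lie at -0.21, -0.22 and -0.13 in mice 2, 4 and 5 while those of complexes III and V lie below -0.17 in mouse 2 and between -0.02 and 0.02 in mice 4 and 5.

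Complex I, which oxidises NADH, held 5 of the 8 members with an unadjusted p under 0.05, which is 14.3% of its 35 members beside 11.9% of all genes. The median was -0.06, and 12 members (34.3%, beside 22.9% of all genes) were lower in all 3 mice and 1, Ndufa4, was higher. The medians within mice 2, 4 and 5 were -0.18, -0.04 and -0.03.

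Ndufs1, the large iron-sulfur subunit of the arm that binds NADH, measured 8.81, 8.77 and 8.67 in the unstimulated cultures of mice 2, 4 and 5 and 8.45, 8.58 and 8.38 after C5a. All 3 C5a values lay below all unstimulated values. The means were 8.75 ± 0.07 and 8.47 ± 0.10 (SD, n = 3), and the difference was -0.28 with a standard error of 0.07 (limma adjusted p = 0.172). Ndufs1 was the member that kept an unadjusted p under 0.05 in the most alternative analyses, 19 of 21.

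Ndufa6, an accessory subunit that carries the mitochondrial acyl carrier protein, measured 9.09, 8.82 and 8.96 without stimulation and 8.20, 8.53 and 8.73 with C5a. The groups did not overlap, but mouse 2 differed by -0.89 and mice 4 and 5 by -0.30 and -0.23. The difference was -0.47 with a standard error of 0.15 (limma adjusted p = 0.235). Without mouse 5, or without its C5a array, Ndufa6 met the p and fold thresholds of the methods, and no other member met them in any of the 21 alternatives.

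Ndufs3, a core subunit of the module that reduces ubiquinone, measured 9.83, 9.73 and 9.70 unstimulated and 9.48, 9.66 and 9.44 with C5a. Its groups did not overlap, by a narrow margin in mouse 4. The difference was -0.22 with a standard error of 0.09 (limma adjusted p = 0.303). A further Ndufs3 probeset of lower mean gave -0.20 with overlapping groups and an unadjusted p above 0.05 (limma adjusted p = 0.355). Ndufc2, an accessory subunit of the membrane arm, measured 10.09, 10.08 and 9.95 unstimulated and 9.95, 9.89 and 9.75 with C5a. Mouse 5 started lower than the others, so that its unstimulated value nearly met the C5a value of mouse 2. The difference was -0.18 with a standard error of 0.07 (limma adjusted p = 0.29).

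Ndufa9, an accessory subunit near the junction of both arms, measured 8.93, 9.06 and 8.86 unstimulated and 8.82, 8.87 and 8.59 with C5a. It was lower in each mouse, while the groups overlapped. The difference was -0.19 with a standard error of 0.07 (limma adjusted p = 0.307). Ndufv1, the core subunit that binds the flavin and NADH, differed by 0.02 (limma adjusted p = 0.965) and had both signs among the mice. Core subunits thus stood among the members with and without a lower value.

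Ndufa4, once assigned to complex I and now counted with complex IV, measured 10.46, 10.45 and 10.33 unstimulated and 10.46, 10.46 and 10.35 with C5a. It was higher in each mouse by a very small and even amount (0.01, limma adjusted p = 0.975). Its paralogue Ndufa4l2, known as a gene induced by hypoxia, measured 8.58, 9.18 and 9.11 unstimulated and 8.15, 8.73 and 9.17 with C5a. Ndufa4l2 was lower in mice 2 and 4 and slightly higher in mouse 5, and its mice were farther apart than its groups (-0.27, limma adjusted p = 0.403).

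**Figure D2:**
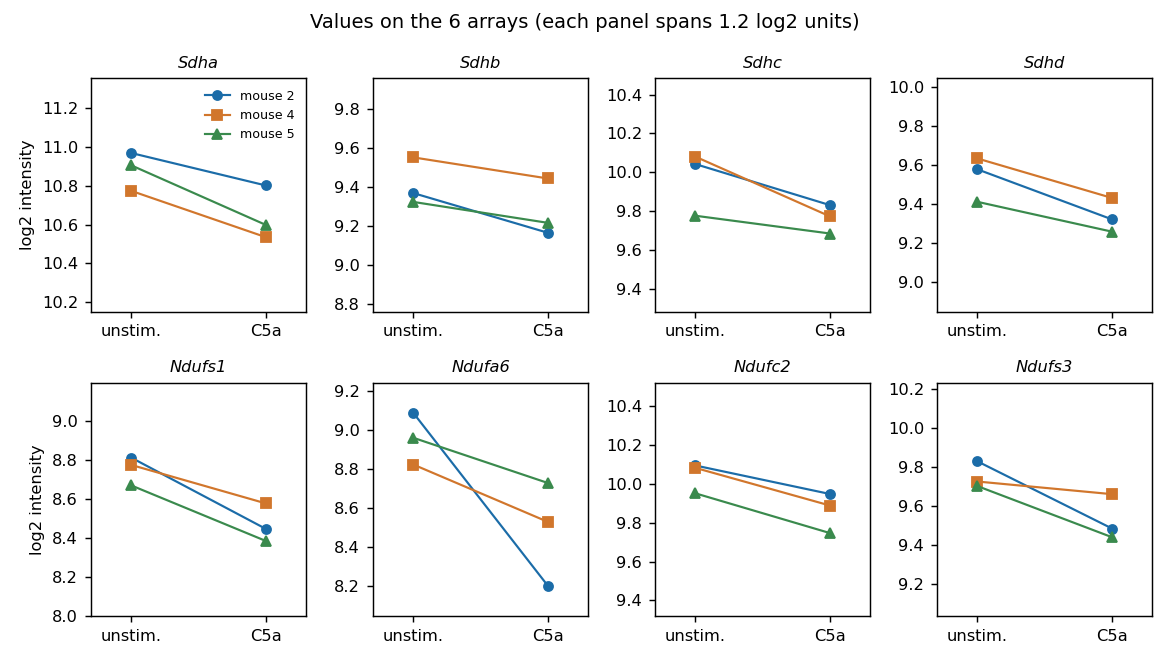
Log2 intensity (vertical axis) of the 4 complex II genes and of 4 complex I genes without stimulation and after 4 h with C5a, with 1 line per mouse. Every line runs downwards, and the C5a values of Ndufs1, Ndufa6, Ndufc2 and Ndufs3 lie below all unstimulated values of the same gene while those of the complex II genes overlap with them.

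Complex II, succinate dehydrogenase, had the lowest median of the 5 complexes, -0.20. All 4 of its genes were lower after C5a in all 3 mice, beside 22.9% of all genes. The medians within mice 2, 4 and 5 were -0.21, -0.22 and -0.13. Of the 4 genes, 3 were lower at an unadjusted p under 0.05 in limma with the mouse as a block, beside 11.9% of all genes. None of the 4 passed the adjusted threshold. The call depended on the analysis: without the block 1 gene had an unadjusted p under 0.05, and by the methods' t-test 0 genes.

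Sdha, the flavoprotein that oxidises succinate (chr13:74322255-74350240), measured 10.97, 10.77 and 10.90 unstimulated and 10.80, 10.53 and 10.60 with C5a. Mouse 2 after C5a was higher than mouse 4 before it, so that the groups overlapped. The means were 10.88 ± 0.10 and 10.64 ± 0.14 (SD, n = 3), and the difference was -0.24 with a standard error of 0.07 (limma adjusted p = 0.212). Sdhb, the iron-sulfur subunit that hands the electrons on (chr4:140961271-140979198), measured 9.37, 9.55 and 9.32 unstimulated and 9.16, 9.44 and 9.22 with C5a. Mouse 4 was the highest in both groups. The difference was -0.14 with a standard error of 0.07 (limma adjusted p = 0.434).

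Sdhc and Sdhd, the membrane anchors that hold the ubiquinone site, gave differences of the same size. Sdhc (chr1:171129157-171150640) measured 10.04, 10.08 and 9.78 unstimulated and 9.83, 9.77 and 9.69 with C5a. Mouse 5 was the lowest in both groups, and the difference was -0.20 with a standard error of 0.08 (limma adjusted p = 0.305). Sdhd (chr9:50596340-50603849) measured 9.58, 9.63 and 9.41 unstimulated and 9.32, 9.43 and 9.26 with C5a. Mouse 5 was the lowest in both groups here too, and the difference was -0.20 with a standard error of 0.07 (limma adjusted p = 0.255). The 3 complex II genes with windows shown above all carried an NRF1 half-site or an ETS core, which members without a lower value also carried, such as Cox6a1.

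Complex III, which moves electrons from ubiquinol to cytochrome c, had 8 members, none with an unadjusted p under 0.05. All 8 had a value below 0, beside 52.1% of all genes, while 7, 4 and 5 did within mice 2, 4 and 5. The median was -0.03, or 0.01 without mouse 2. In all 3 mice, 2 (25%) were lower, beside 22.9% of all genes. Uqcrc2, a core protein of the matrix side, measured 9.72, 9.78 and 9.63 unstimulated and 9.61, 9.67 and 9.43 with C5a, a difference of -0.14 (limma adjusted p = 0.413). Uqcrfs1, the Rieske iron-sulfur protein, measured 7.76, 7.79 and 7.61 unstimulated and 7.41, 7.78 and 7.45 with C5a, a difference of -0.17 (limma adjusted p = 0.463). The value of Uqcrfs1 in mouse 4 was almost the same in both cultures. Uqcrc1, the other core protein, differed by -0.03 (limma adjusted p = 0.91), and Uqcrh, the hinge protein, by -0.03 (limma adjusted p = 0.953).

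Complex IV, cytochrome c oxidase, had the median nearest to 0, -0.01. In all 3 mice, 1 of its 17 members (5.88%), Cox7b2, was lower and 3 (17.6%), Cox5a, Cox7a1 and Cox7a2, were higher. The shares of all genes were 22.9% and 19.0%. None had an unadjusted p under 0.05 by the probeset used. Cox5a, a subunit of the matrix side, measured 8.99, 9.21 and 8.93 unstimulated and 9.07, 9.22 and 9.17 with C5a, higher in each mouse (0.11, limma adjusted p = 0.622). Cox7a2 measured 8.63, 8.65 and 8.64 unstimulated and 8.68, 8.78 and 8.69 with C5a, the member whose C5a values all lay above the unstimulated ones (0.07, limma adjusted p = 0.721). The unstimulated values of Cox7a2 lay close together, with an SD of 0.01. Cox7a2l is known for joining complexes III and IV into supercomplexes rather than as a regular subunit, a role not tested in these cells. Cox7a2l measured 9.95, 9.54 and 9.43 unstimulated and 9.48, 9.25 and 9.45 with C5a. It was lower in mice 2 and 4 and level in mouse 5 (-0.25, limma adjusted p = 0.399). A second probeset of Cox7a2l, not used because of its slightly lower mean, gave -0.34 (limma unadjusted p = 0.016, adjusted p = 0.187). It was lower in all 3 mice, without overlap, so that the reading of Cox7a2l depended on the probeset.

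Complex IV is the complex whose subunits have forms that differ between tissues. Of the widely expressed forms, Cox4i1 measured 9.39 to 9.62 over the 6 arrays, Cox6a1 11.12 to 11.61, Cox6b1 10.85 to 11.19 and Cox8a 9.90 to 10.09, with differences of 0.05, 0.02, 0.04 and 0.01. The forms known from heart and skeletal muscle measured 6.15 to 6.44 for Cox6a2, 5.89 to 5.93 for Cox7a1 and 4.97 to 5.16 for Cox8b, with differences of -0.05, 0.02 and 0.03. Those known from testis measured 4.06 to 4.19 for Cox7b2, 4.83 to 4.96 for Cox8c and 6.44 to 7.29 for Cox6b2. Probesets have affinities of their own, so that these values do not rank the forms. Cox4i2, the form known from lung and from low oxygen, measured 6.79, 6.96 and 6.71 unstimulated and 6.84, 6.63 and 6.56 with C5a (-0.15, limma adjusted p = 0.579). None of these forms had an unadjusted p under 0.05.

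**Figure D3:**
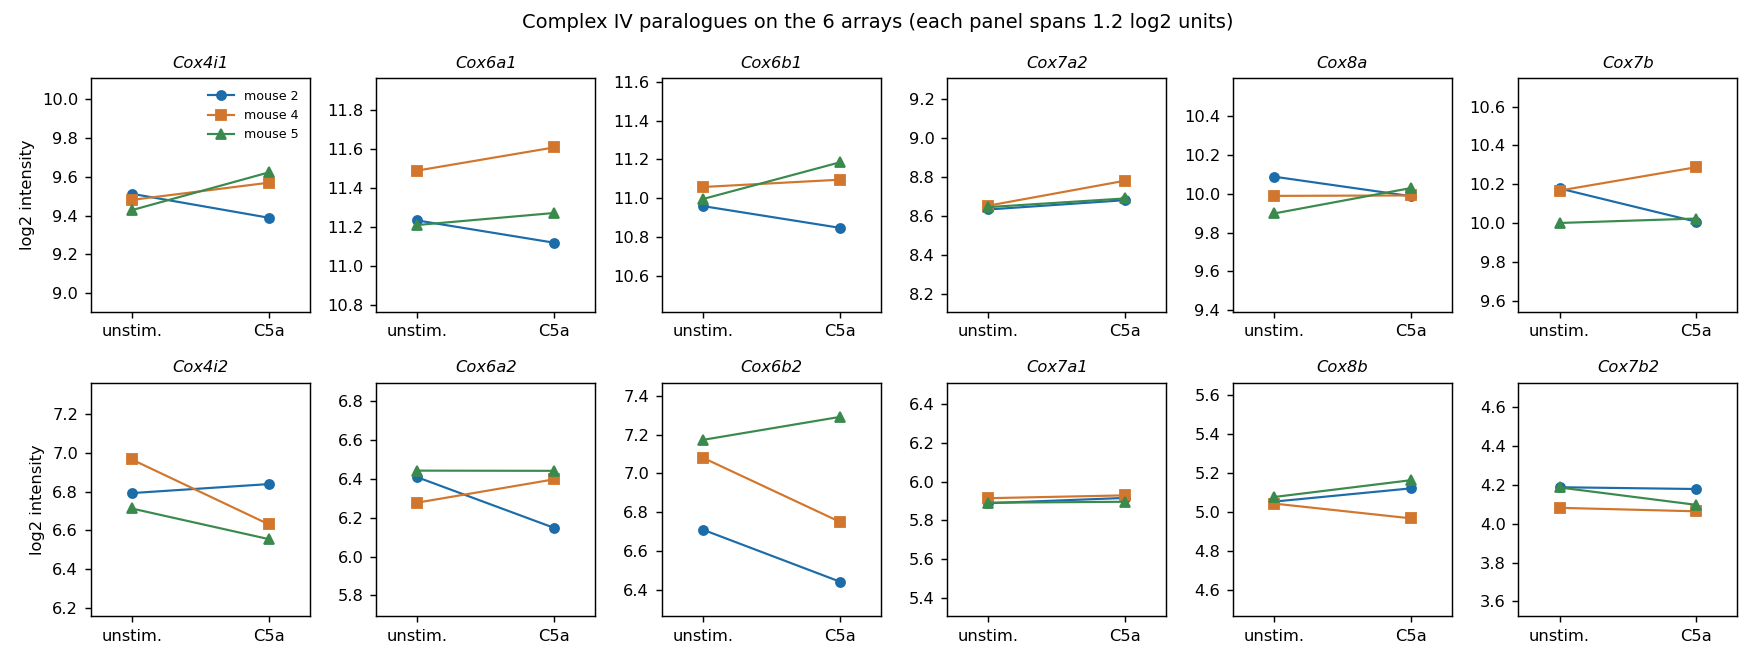
Log2 intensity (vertical axis) of widely expressed complex IV forms (upper row) and of forms known from particular tissues (lower row) without stimulation and after 4 h with C5a, with 1 line per mouse. All panels have the same height in log2 units, and the lines of Cox6b2 stand farthest apart between mice, with means of 6.58, 6.92 and 7.23 in mice 2, 4 and 5.

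Complex V, the ATP synthase, had a median of -0.05 over 17 members, and 0 members had an unadjusted p under 0.05. Atp5a1, Atp5c1, Atp5g2, Atp5j2 and Atp5mpl (29.4%) were lower in all 3 mice and Atp5g3 (5.88%) was higher, beside 22.9% and 19.0% of all genes. The medians within mice 2, 4 and 5 were -0.19, 0.02 and -0.01. Atp5b, the catalytic subunit, measured 11.83, 11.98 and 11.84 unstimulated and 11.82, 12.06 and 11.79 with C5a, a difference of 0.004 (limma adjusted p = 0.991). Atp5a1, its partner in the catalytic head, measured 11.38, 11.42 and 11.17 unstimulated and 11.29, 11.23 and 11.04 with C5a, lower in each mouse (-0.13, limma adjusted p = 0.455). The difference between these partners was not tested.

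The 3 genes for the c subunit of the rotor ring encode the same mature protein behind different targeting sequences. Atp5g2 measured 10.98, 11.02 and 10.95 unstimulated and 10.67, 10.95 and 10.90 with C5a, without overlap (-0.15, limma adjusted p = 0.518). Atp5g1 and Atp5g3 had differences of 0.10 and 0.07 (limma adjusted p = 0.795 and 0.745). Atp5j2, the membrane subunit f, measured 10.98, 10.97 and 10.94 unstimulated and 10.74, 10.87 and 10.93 with C5a, without overlap by a narrow margin in mouse 5 (-0.11, limma adjusted p = 0.607). Atp5md, a small subunit that helps to link synthase dimers, measured 10.37, 10.37 and 10.27 unstimulated and 10.11, 11.04 and 10.44 with C5a. Mice 2, 4 and 5 differed by -0.26, 0.68 and 0.17. The highest difference of all members, 0.20, thus rested mainly on mouse 4 (limma adjusted p = 0.731).

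**Figure D4:**
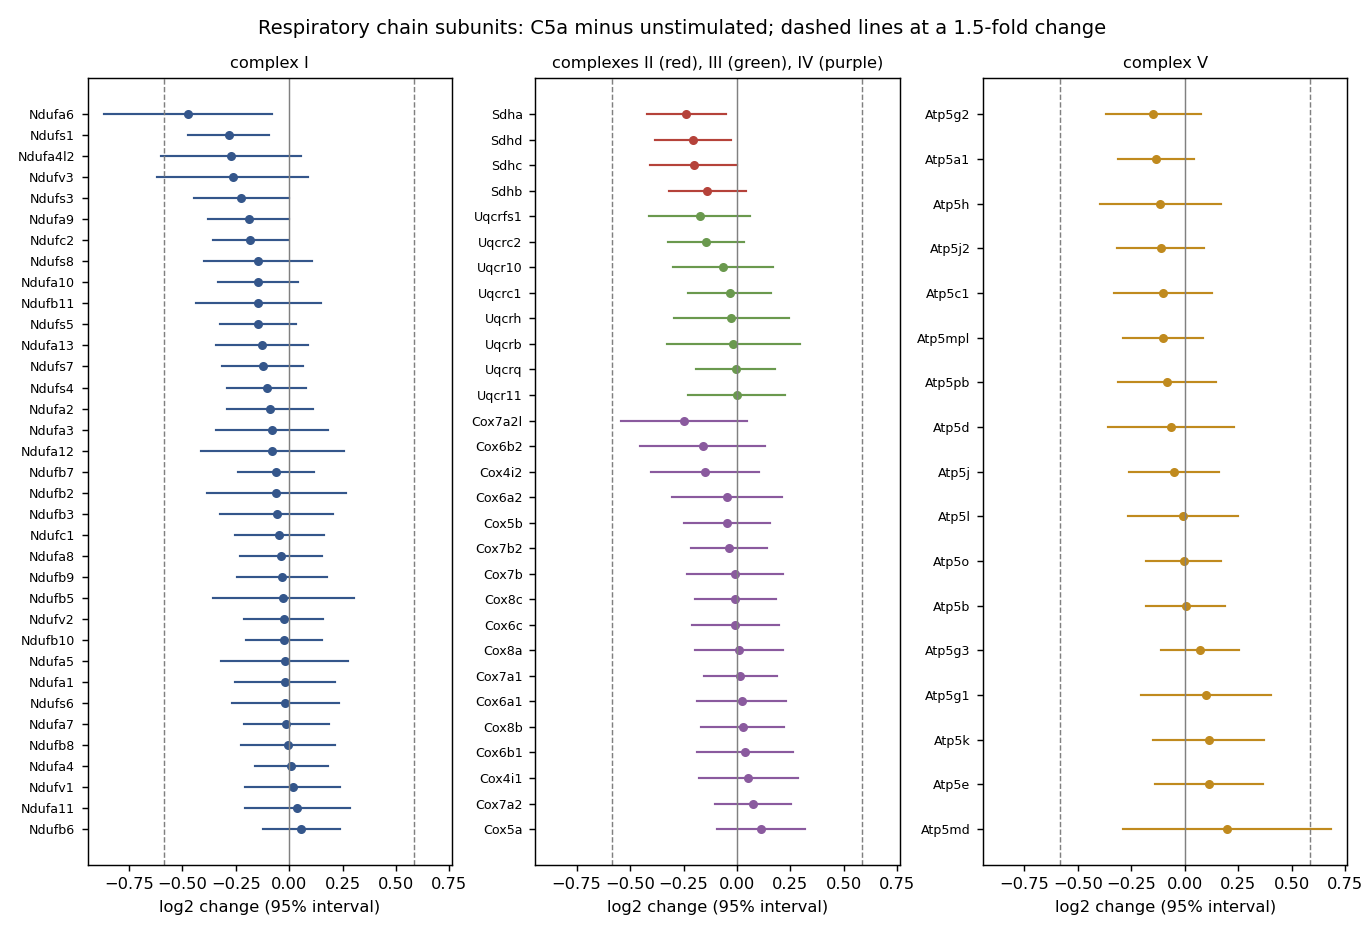
Difference of each of the 81 members (C5a minus unstimulated, log2, horizontal axis) with its 95% interval from limma with the mouse as a block. Dashed lines stand at a 1.5-fold change, and the intervals of 77 members lie between them. Of all genes measured, which are not drawn, 83.9% had intervals within the same bounds.

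The range between the mean levels of the 3 mice exceeded the difference with C5a in 69 of 81 members, and in 14234 of all 19938 genes. A range over 3 means tends to exceed a single difference even without any effect. These counts therefore do not rank mice against treatments. The median of this range was 0.18 over the members and 0.17 over all genes. The widest ranges were those of Ndufa4l2, with means of 8.36, 8.95 and 9.14 in mice 2, 4 and 5, and of Cox6b2. The median deviation from the mean of the 3 mice was -0.02, 0.05 and -0.04 over the members in mice 2, 4 and 5, and 1.02, 1.34 and -2.22 over the 19 macrophage and osteoclast markers. For complex II it was 0.04, 0.08 and -0.09, in the same order of mice as for these markers. Complexes I, III and V had this order too, and complex IV did not. The osteoblast markers also had it, with -0.01, 0.76 and -0.67. The median difference with C5a over the macrophage and osteoclast markers was -0.34, -0.42 and 0.11 in mice 2, 4 and 5, above 0 in mouse 5 only. That over complex II was -0.21, -0.22 and -0.13, below 0 in all 3. It was nearest to 0 in mouse 5, as were the medians of complexes I and V, -0.03 and -0.01, beside -0.04 and 0.02 in mouse 4. The medians of complexes III and IV were nearest to 0 in mouse 4, 0.016 and 0.038, beside -0.019 and 0.045 in mouse 5. The part of such cells in the members' values was not tested.

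Genes that serve the chain without belonging to it were described by 7 lists with 136 measured genes: mitochondrially encoded subunits, nuclear subunits with other names and mobile carriers, assembly factors, the tricarboxylic acid cycle with pyruvate dehydrogenase, regulators of mitochondrial biogenesis, carriers, and coenzyme Q with other quinone reductases. Of these 136 genes, 24 (17.6%) were lower and 14 (10.3%) higher at an unadjusted p under 0.05, beside 11.9% and 8.26% of all genes, and 0 passed the adjusted threshold over all probesets. When only the 21789 probesets naming 1 gene were tested, 795 of them passed the adjusted threshold, and 10 of the 136 genes did. These 10 were Pdp1, Coq10a, Pcx, Gabpb1, Tmem126b, Idh1, Etfdh, Coa3, Pdk2 and Bcs1l. Of these 10, Gabpb1 was higher and the others were lower.

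Of the tricarboxylic acid cycle with pyruvate dehydrogenase, 7 of 27 genes (25.9%) were lower and 3 (11.1%: Dlst, Idh3a and Mdh2) higher at an unadjusted p under 0.05, the rule for the counts of all lists that follow, whose shares stand beside the same 11.9% and 8.26% of all genes. Pdp1, the phosphatase that activates pyruvate dehydrogenase, measured 11.81, 10.78 and 10.84 unstimulated and 9.82, 9.62 and 9.44 with C5a. All C5a values lay below all unstimulated ones, and the difference was -1.52 with a standard error of 0.17 (limma adjusted p = 0.0869). Over the 27 genes, 7 (25.9%) lay wholly lower and 3 (11.1%) wholly higher, beside 9.95% and 8.67% of all genes. Pdk2, a kinase that inactivates the same enzyme, measured 9.13, 8.87 and 9.14 unstimulated and 7.96, 8.33 and 8.51 with C5a, a difference of -0.78 (limma adjusted p = 0.118). Idh1, the cytosolic isocitrate dehydrogenase, and Pcx, pyruvate carboxylase, differed by -0.69 and -0.48 (limma adjusted p = 0.112 and 0.101). The list thus holds regulators of pyruvate dehydrogenase and a cytosolic enzyme, and its counts do not describe the enzymes of the cycle alone.

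Of the assembly factors, 8 of 46 (17.4%) were lower and 4 (8.70%: Ndufaf4, Ttc19, Uqcc1 and Uqcc2) higher. Tmem126b, needed to build the membrane arm of complex I, measured 7.73, 7.85 and 7.82 unstimulated and 7.23, 7.49 and 7.22 with C5a, a difference of -0.49 (limma adjusted p = 0.111). Bcs1l, which inserts the Rieske protein into complex III, measured 7.99, 7.81 and 7.83 unstimulated and 7.41, 7.50 and 7.37 with C5a, a difference of -0.45 (limma adjusted p = 0.117). Coa3, a translation and assembly factor of complex IV, measured 8.99, 8.95 and 8.96 unstimulated and 8.55, 8.63 and 8.48 with C5a, a difference of -0.42 (limma adjusted p = 0.114). In each of these 3 genes the groups did not overlap. Over the 46 factors, 8 (17.4%) lay wholly lower and 3 (6.52%) wholly higher, beside 9.95% and 8.67% of all genes. Sdhaf4, a chaperone that helps to assemble complex II, measured 6.47, 6.28 and 6.61 unstimulated and 6.05, 6.10 and 6.15 with C5a, also without overlap (-0.35, limma adjusted p = 0.163).

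Of the quinone genes, 3 of 16 (18.8%) were lower and 0 higher. Coq10a, a coenzyme Q binding protein, measured 7.91, 7.82 and 7.91 unstimulated and 7.03, 7.07 and 7.43 with C5a, a difference of -0.70 (limma adjusted p = 0.0986). Etfdh, which passes electrons from fatty acid oxidation to ubiquinone, differed by -0.46 and Etfb, a subunit of its electron donor, by -0.23. Of the carriers, 5 of 19 (26.3%: Slc25a4, Slc25a11, Slc25a12, Slc25a13 and Slc25a20) were lower and 1 (5.26%: Slc25a5) was higher, with Slc25a11, the oxoglutarate carrier, at -0.45 and Slc25a4, an ADP/ATP carrier, at -0.25 (limma adjusted p = 0.149 and 0.241).

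Cycs, which encodes cytochrome c, the mobile carrier between complexes III and IV, measured 10.16, 10.20 and 9.76 unstimulated and 10.49, 10.87 and 10.13 with C5a. It was higher in each mouse while the groups overlapped, with a difference of 0.46 and a standard error of 0.10 (limma adjusted p = 0.134). Cyc1, the cytochrome of complex III that passes electrons to it, differed by 0.16 (limma adjusted p = 0.564). Of the mitochondrially encoded subunits 2 had a probeset of their own, and both lay within 0.1 of no difference: ND3 of complex I at -0.10 and COX2 of complex IV at 0.01.

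Of the regulators of mitochondrial biogenesis, 1 of 19, Tfb1m, was lower (5.26%) and 4 (21.1%: Gabpb1, Polg, Pprc1 and Twnk) were higher. Gabpb1, a subunit of the ETS factor GABP, measured 7.95, 8.04 and 8.16 unstimulated and 8.61, 8.45 and 8.62 with C5a, without overlap (0.51, limma adjusted p = 0.109). Pprc1, a coactivator related to PGC-1α, measured 7.31, 7.66 and 7.40 unstimulated and 8.36, 7.98 and 7.92 with C5a, also without overlap (0.63, limma adjusted p = 0.166). Over the 19 regulators, 0 lay wholly lower and 5 (26.3%) wholly higher, beside 9.95% and 8.67% of all genes. Ppargc1a, which encodes PGC-1α, measured 6.61, 5.61 and 6.10 unstimulated and 5.74, 5.80 and 5.72 with C5a, lower in mice 2 and 5 and higher in mouse 4 (-0.36, limma adjusted p = 0.53). Nrf1 and Tfam, the activator of subunit genes and the packaging factor of mitochondrial DNA, differed by 0.06 and 0.01 (limma adjusted p = 0.845 and 0.989).

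Other large complexes on the same arrays had medians on both sides of 0. The 21 subunits of the vacuolar proton pump, which acidifies lysosomes, had a median of -0.12, with 7 (33.3%) lower and 0 higher, and medians of -0.18, -0.16 and -0.07 in mice 2, 4 and 5. The 39 proteasome subunits had a median of 0.08, with 0 lower and 7 (17.9%) higher. In all 3 mice, 21 (53.8%) of them and 15 (62.5%) of the import translocases were higher, beside 19.0% of all genes. Lower in all 3 mice were 2 (5.13%) and 4 (16.7%), beside 22.9% of all genes. The 24 mitochondrial import translocases had a median of 0.11, with 1 (Timm21) lower and 9 (37.5%) higher, and the 77 mitochondrial ribosomal proteins one of 0.01, with 5 (Mrpl11, Mrpl36, Mrpl45, Mrps6 and Mrps15) lower and 11 (14.3%) higher. Tomm70a, a receptor of the outer membrane for imported proteins, measured 8.70, 8.89 and 8.66 unstimulated and 9.61, 9.42 and 9.47 with C5a (0.75, limma adjusted p = 0.0959). The 61 cytosolic ribosomal proteins had a median of 0.03, and in mouse 2, where the chain subunits were lowest, one of -0.08. These medians describe the lists, and the differences between lists were not tested.

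**Figure D5:**
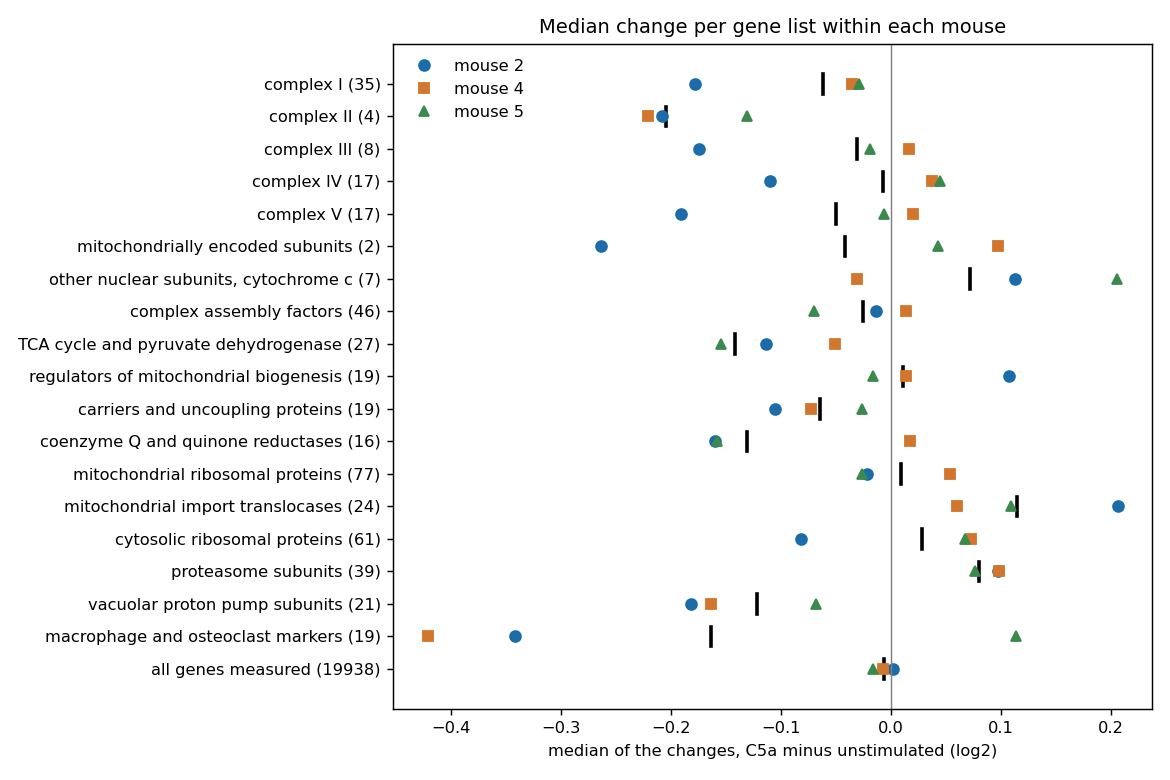
Median difference (C5a minus unstimulated, log2, horizontal axis) of each gene list within mice 2, 4 and 5 (symbols) and over the 3 mice (black bars), with the number of genes in brackets. Complexes I and II, tricarboxylic acid cycle with pyruvate dehydrogenase, carriers and vacuolar proton pump lie below 0 in all 3 mice. The import translocases and the proteasome lie above 0 in all 3, and complexes I, III, IV and V lie lowest in mouse 2.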

How the data were processed

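RNA of 6 cultures was hybridised to Affymetrix Mouse Gene 1.0 ST arrays. The deposited values are log2 intensities per probeset, which the authors obtained with Expression Console, BRB-ArrayTools and robust multiarray averaging. The table was used as deposited. Of 35556 probesets, 21789 name 1 gene, 1621 several and 12146 none in the platform annotation. A gene was represented by its probeset with the highest mean, which left 24 further probesets of 16 members unused, and 6 probesets naming several genes were left out. Arrays have no read depth, and their number limits the precision.

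Groups were compared with limma 3.58.1 in R 4.3.3, with the mouse number as a block, since the study's design text gives a pair of cultures per mouse. Deviations from the group means correlated at 0.495 to 0.684 within a mouse and at -0.446 to -0.035 between mice. The methods name a t-test, which was run as an alternative in its unpaired form with equal variances, since pairing is not stated there. Benjamini-Hochberg adjustment ran over all probesets, and the steps were tested on simulated data. The members and lists were chosen with earlier results of these data known. Named genes were members with an unadjusted p under 0.05, up to 4 members per complex and up to 4 genes per list with the smallest p, core subunits, tissue-specific paralogues, and cytochrome c genes and biogenesis regulators named by symbol. Members named for an absence of overlap, for the same direction in all mice or for the widest range, Atp5md, Sdhaf4, the markers and list genes beyond these were named after their values were seen. Promoters came from RefSeq's table for GRCm38.p6, searched on both strands. Identity between paralogous proteins was not analysed here.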

Additional observations from a re-analysis of the deposited data

How the results depend on the processing

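The 81 members numbered 0 at an adjusted p under 0.05 under all 21 alternatives, with the smallest adjusted p between 0.0865 and 0.598. The count over all probesets varied: 4 passed with the mouse as a replicate block, 373 without the probesets whose mean lay under the 40th percentile, 795 among probesets naming 1 gene, 737 with the probesets of a gene averaged, 0 by the methods' t-test and 0 by the paired t-test. The 3 settings with many calls tested fewer features, and the cause was not tested further. Of the 7 pathway lists, 0 genes passed in the replicate block fit and 2, 10 and 10 in those 3 settings. Probesets past the p and fold thresholds numbered 1166, but 665 by the methods' t-test and 517 by the paired t-test.

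Members lower at an unadjusted p under 0.05 numbered 8 with the replicate block and 4 without it, 2 by the methods' t-test, 3 with a variance trend and robust estimation, 3 with the filter and 5 after quantile normalization, and the paired t-test called 1 member higher, Ndufa4. For complex II the 3 genes became 1 without the replicate block, 0 by the methods' t-test, 1 with the trend and 1 with the filter. The 24 lower pathway genes became 12 by the paired t-test, and the 14 higher ones became 9 without the block, 9 by the methods' t-test and 9 by the paired t-test.

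Leaving out both cultures of a mouse or a single array gave 0 to 3 probesets at the adjusted threshold and 701 to 1754 past p and fold (without the C5a array of mouse 2 and without mouse 4), 0 to 1 members past p and fold (Ndufa6), 1 to 7 members lower, of which 2, 4 and 4 without mice 2, 4 and 5, 0 to 2 complex II genes lower (1, 0 and 0 without mice 2, 4 and 5), a complex II median of -0.25 to -0.15, and 13 to 24 lower and 6 to 10 higher pathway genes. Median centring, the probeset of largest spread, leaving out Cox7a2l and Ndufa4l2, and counting Ndufa4 and Ndufa4l2 with complex IV kept the counts within 1.5 times. Some genes with differences near 0 changed sign. Atp5b and Tfam became -0.0015 and -0.00004 with median centring, and COX2, Cox7b, Tfam and Esrra became -0.032, 0.0045, -0.00017 and 0.0092 with quantile normalization. Cox7b became 0.069 with the probeset of largest spread and 0.030 with averaged probesets. With cultures left out, the differences ranged from -0.39 to 0.033 for Cox6b2, -0.15 to 0.010 for Uqcr10, -0.15 to 0.074 for Uqcrc1, -0.11 to 0.092 for Uqcrh, -0.076 to 0.17 for COX2, -0.056 to 0.086 for Ndufv1, -0.030 to 0.048 for Ndufa4, -0.017 to 0.14 for Cox4i1, -0.12 to 0.13 for Cox6a1, -0.13 to 0.059 for Cox6a2, -0.037 to 0.14 for Cox6b1, -0.10 to 0.072 for Cox7b, -0.049 to 0.067 for Cox8a, -0.013 to 0.085 for Cox8b, -0.051 to 0.032 for Cox8c, -0.082 to 0.056 for Atp5b, -0.087 to 0.23 for Atp5g1, -0.0042 to 0.15 for Atp5g3, -0.086 to 0.0028 for Ppargc1b, -0.018 to 0.15 for Nrf1, -0.045 to 0.070 for Tfam, -0.082 to 0.037 for Esrra, -0.059 to 0.42 for Atp5md, -0.88 to 0.11 for Pdk4 and -0.34 to 0.16 for Atpif1. Of the 79 genes compared across the alternatives, no other changed sign.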
